A study of Mus musculus with 10 samples.

Results

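The Notch receptor genes Notch1, Notch2 and Notch3, the ligand genes Dll1 and Jag1 and the target genes Hes1, Hes5, Hey1, Hey2 and Heyl were examined in DRGs (dorsal root ganglia, which hold the cell bodies of sensory neurons) of Lkb1 KO and WT mouse embryos. These 10 genes were chosen by name, with earlier results of these data known. All 10 were measured among 19938 genes. Each was covered by 1 probe set that the platform annotation assigns to that gene alone. The experiment was set up to find genes whose expression differs when Lkb1 (gene symbol Stk11) is missing from the neural crest lineage. Lkb1 KO embryos carried floxed Lkb1 and a Wnt1-Cre transgene. This Cre recombines the neural crest, from which both the neurons and the glia of the DRG arise, but not that lineage alone, since parts of the central nervous system (midbrain, dorsal neural tube) recombine too. The controls were WT littermates of mixed genetic background. There were 5 Lkb1 KO and 5 WT samples of E13.5 embryos, each of them DRGs of 2 embryos combined before 250 ng of RNA went onto 1 one-colour array, so that n counts pools.

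In Notch signalling a ligand of the Delta or Jagged family on 1 cell binds a Notch receptor on its neighbour. The receptor is then cut, first by an ADAM protease and then within the membrane by gamma-secretase, and its freed intracellular part joins the DNA-binding protein RBPJ to switch on Hes and Hey genes. Hes and Hey proteins are basic helix-loop-helix repressors. In the developing DRG this signalling is known for holding crest-derived progenitors back from becoming neurons and for favouring glia, and in vessels it acts in endothelium and in the mural cells around it.

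Jag1 was 1.71-fold higher in Lkb1 KO than in WT DRGs, and the target genes Heyl and Hey2 were 1.37-fold and 1.11-fold higher. The 3 receptor genes, Dll1, Hes1, Hes5 and Hey1 did not pass the test. In all, 3 of the 10 genes were higher and 0 were lower at an adjusted p under 0.05 (limma, Benjamini-Hochberg adjustment over all 19938 genes). Across all genes 2.49% were higher and 1.38% lower by the same rule. As the 10 were chosen with earlier results known, these shares are a description and no test of the set. At an unadjusted p under 0.05 the counts among the 10 were also 3 higher and 0 lower, against 7.51% and 7.77% of all genes, and one-way analysis of variance gave 3 and 0 as well. The median log2 fold change (the difference of mean log2 levels, Lkb1 KO minus WT, in this and all later values) was 0.073 over the 10 genes and -0.0017 over all genes. In bulk samples such as these, fewer cells of a type and less RNA per cell cannot be told apart.

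The deleted gene itself, Stk11, had log2 levels of 8.51 to 9.08 in the WT and 7.68 to 7.94 in the Lkb1 KO pools, a log2 fold change of -0.92 (SE 0.092, limma adjusted p = 0.000115). All 10 measured markers of sensory neurons had a mean above the median level of all genes (6.72), for example Isl1 at 11.77 ± 0.05 in WT (SD, n = 5). Of 10 measured markers of glia 8 did, for example Sox10 at 9.26 ± 0.099, while Mia at 4.72 and S100b at 6.05 in WT did not. The pools differed in signal of Y-linked genes, with a summed log2 level of 6.62 in Lkb1 KO replicate 2, of 6.81 in Lkb1 KO replicate 5 and of 10.57 to 11.57 in the other 8. Calls below were therefore also run without those 2 pools. Where a call was lost the value is given, or for the fibroblast and proliferation lists the number still called.

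Promoter sequences from RefSeq (GRCm38.p6), running from 250 bases before to 50 bases after the transcription start, were matched by symbol for 7 of the 10 genes. Those of Jag1 and Hey2, which were higher in Lkb1 KO, are shown with that of Hes5, a classical Notch target that did not pass the test, so that the RBPJ letters in the 3 can be compared. No promoter was matched for Hes1, Hey1 or Heyl, so that Heyl, which was also higher, is missing here. The Jag1 promoter lies at chr2:137116471-137116770 on the minus strand, that of Hey2 at chr10:30842734-30843033 on the minus strand and that of Hes5 at chr4:154960673-154960972 on the plus strand. Each is written 5′ to 3′ along the gene, with the start of transcription just after base 250, and capitals mark TGGGAA or its reverse complement TTCCCA, the core letters that RBPJ recognises.
Jag1: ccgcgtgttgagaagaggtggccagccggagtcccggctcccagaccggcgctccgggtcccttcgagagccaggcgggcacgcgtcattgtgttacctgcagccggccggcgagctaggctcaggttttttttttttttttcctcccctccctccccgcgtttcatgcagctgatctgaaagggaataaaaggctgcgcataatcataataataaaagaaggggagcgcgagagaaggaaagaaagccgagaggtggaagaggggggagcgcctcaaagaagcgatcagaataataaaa
Hey2: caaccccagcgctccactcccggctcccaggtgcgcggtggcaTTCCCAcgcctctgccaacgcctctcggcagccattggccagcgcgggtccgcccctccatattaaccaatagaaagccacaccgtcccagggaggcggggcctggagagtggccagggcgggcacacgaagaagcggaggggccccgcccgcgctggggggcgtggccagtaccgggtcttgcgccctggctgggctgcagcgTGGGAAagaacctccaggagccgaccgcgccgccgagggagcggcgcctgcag
Hes5: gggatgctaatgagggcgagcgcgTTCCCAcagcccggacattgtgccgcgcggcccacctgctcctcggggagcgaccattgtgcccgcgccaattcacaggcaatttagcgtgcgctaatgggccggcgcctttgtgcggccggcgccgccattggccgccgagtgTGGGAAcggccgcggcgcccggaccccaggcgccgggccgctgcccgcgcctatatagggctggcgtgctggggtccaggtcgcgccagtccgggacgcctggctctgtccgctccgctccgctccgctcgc
The Hey2 promoter held these letters at position 44 in the TTCCCA orientation and at position 248 in the TGGGAA orientation, counted from 1 at the 5′ end. That of Hes5 held them at positions 25 and 169, in the same order of orientations. The Jag1 window and those of Notch1, Notch2, Notch3 and Dll1 did not hold them. Of all 32851 promoters of this length, 25.6% held the letters on either strand and 1.81% on both. The letters are a description of these windows and do not show binding.

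Of the ligands, Jag1 encodes Jagged1, a membrane ligand of Notch receptors. Its log2 levels in WT replicates 1 to 5 were 8.55, 8.79, 8.82, 8.79 and 8.84. In Lkb1 KO replicates 1 to 5 they were 9.39, 9.53, 9.51, 9.60 and 9.65. All 5 Lkb1 KO pools lay above all 5 WT pools, with a gap of 0.55 between the groups, and WT replicate 1 was low among the WT pools. The means were 8.76 ± 0.12 in WT and 9.54 ± 0.10 in Lkb1 KO (SD, n = 5), a log2 fold change of 0.78 (SE 0.062, 95% confidence interval 0.64 to 0.91, limma adjusted p = 2.26e-05). An exact two-sided permutation test (252 ways of assigning the pools) gave p = 0.00794, the smallest that these numbers allow. By fold change Jag1 stood at rank 28 of the 496 genes that were higher, and by p at rank 18 of all genes. Within replicate numbers, Lkb1 KO exceeded WT by 0.69 to 0.83. The call held in all 21 alternative fits, which gave log2 fold changes of 0.73 to 0.81.

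Dll1 encodes Delta-like 1, a ligand of neurogenic progenitors. Its log2 levels were 4.96 to 5.07 in WT and 5.02 to 5.15 in Lkb1 KO, so that the groups overlapped, with a log2 fold change of 0.07 (95% confidence interval -0.012 to 0.15, limma adjusted p = 0.429). The Lkb1 KO pool was above the WT pool in 5 of 5 replicate numbers. No detection call was used, and the mean level of 5.05 was under the median of all genes.

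Jag2, the other Jagged gene, was not among the 10. Its log2 levels were 8.11 ± 0.12 in WT and 7.89 ± 0.085 in Lkb1 KO (SD, n = 5), a log2 fold change of -0.22 (SE 0.06, 95% confidence interval -0.35 to -0.09, limma adjusted p = 0.0649). In WT replicate 5 it was at 7.91, below Lkb1 KO replicate 3 at 7.97. Without WT replicate 5 the log2 fold change was -0.27 (limma adjusted p = 0.0124), and with array weights -0.23 (limma adjusted p = 0.0268). No other alternative fit called Jag2, and with the replicate block the limma adjusted p was 0.0684. The 95% confidence intervals of the Jag1 and Jag2 fold changes do not overlap. Of the remaining receptor and ligand genes the smallest p values were those of Dner, which encodes a Delta-like protein of neurons (-0.14, limma adjusted p = 0.32), and Notch4, which is given with the endothelial genes.

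**Figure D1:**
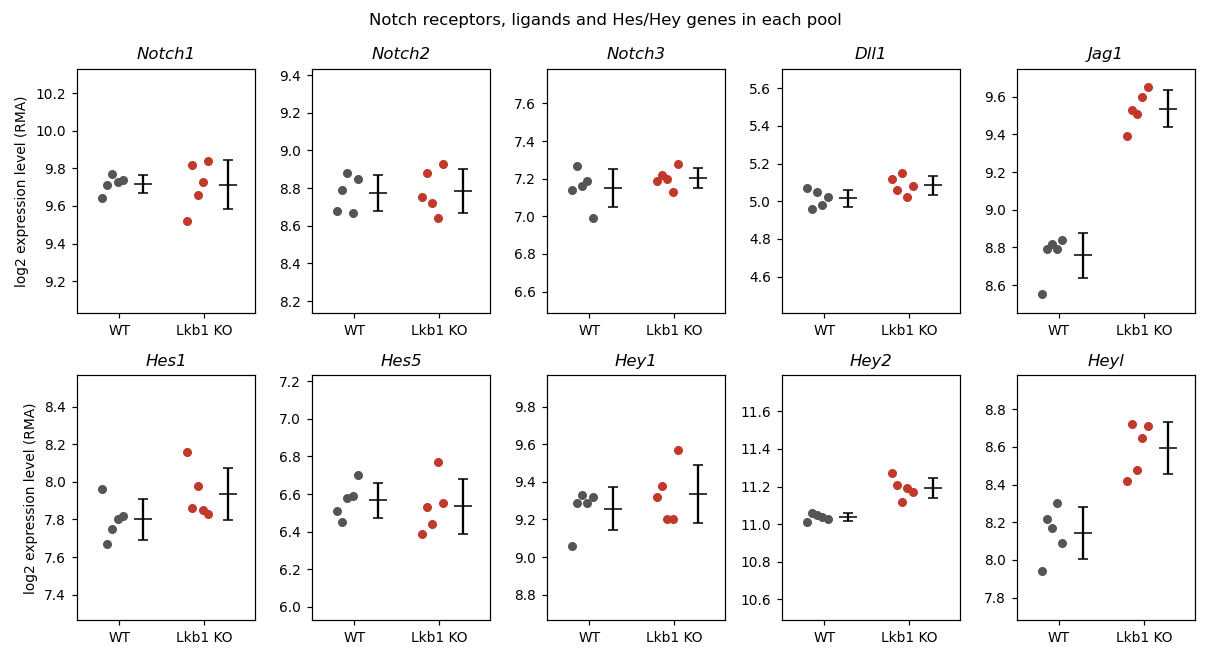
Log2 expression levels (y axis, RMA values) of the 10 genes in each WT (grey) and Lkb1 KO (red) pool, ordered left to right by replicate number, with the mean and SD of the 5 pools beside the points; each y axis spans the same range, centred on that gene. Jag1, Heyl and Hey2 are the 3 genes whose groups do not overlap, and Jag1 has a gap of 0.55 between the WT and Lkb1 KO pools.

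Of the receptors, Notch1 is the one most studied in progenitors, and its log2 levels were 9.64 to 9.77 in WT and 9.52 to 9.84 in Lkb1 KO. The log2 fold change was -0.0037 (95% confidence interval -0.13 to 0.12, limma adjusted p = 0.988). The Lkb1 KO range enclosed that of WT. Notch2 was at 8.67 to 8.88 in WT and 8.64 to 8.93 in Lkb1 KO, with a log2 fold change of 0.0091 (95% confidence interval -0.12 to 0.14, limma adjusted p = 0.968). Notch3, a receptor gene of pericytes and vascular smooth muscle, was at 6.99 to 7.27 in WT and 7.13 to 7.28 in Lkb1 KO, with a log2 fold change of 0.052 (95% confidence interval -0.058 to 0.16, limma adjusted p = 0.716). The groups overlapped for each of the 3 receptor genes, and a rise to the fold of Jag1 lies outside all 3 intervals. A rise of the size of Hey2, at a log2 fold change of 0.15, lies inside the interval of Notch3.

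Among the target genes Heyl, a Hey family repressor gene known from smooth muscle and from neural crest, had log2 levels of 7.94, 8.22, 8.17, 8.30 and 8.09 in WT replicates 1 to 5. In Lkb1 KO replicates 1 to 5 it was at 8.42, 8.72, 8.48, 8.65 and 8.71. All Lkb1 KO pools were above all WT pools, with a gap of 0.12, and replicate 1 was low in both groups. The means were 8.14 ± 0.14 in WT and 8.59 ± 0.14 in Lkb1 KO (SD, n = 5), a log2 fold change of 0.45 (SE 0.075, 95% confidence interval 0.29 to 0.61, limma adjusted p = 0.00483). The exact permutation p was 0.00794, again the smallest possible, and within replicate numbers Lkb1 KO exceeded WT by 0.31 to 0.62. The call held in all 21 alternative fits, with log2 fold changes of 0.34 to 0.49. The value of 0.34 came with Y-linked signal as a covariate (limma adjusted p = 0.0344), and without Lkb1 KO replicates 2 and 5 it was 0.37 (limma adjusted p = 0.0435).

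Hey2, known from heart and arterial development, was at 11.01, 11.06, 11.05, 11.04 and 11.03 in WT replicates 1 to 5. In Lkb1 KO replicates 1 to 5 it was at 11.27, 11.21, 11.12, 11.19 and 11.17. The groups did not overlap, but the gap was only 0.067. The means were 11.04 ± 0.019 and 11.19 ± 0.053 (SD, n = 5), and the log2 fold change was 0.15 (SE 0.036, 95% confidence interval 0.076 to 0.23, limma adjusted p = 0.0306). The exact permutation p was 0.00794. The call was lost when any 1 pool other than Lkb1 KO replicate 3 or 5 was left out (8 of 10 such fits, adjusted p of 0.0513 to 0.0788 from limma), and the log2 fold change stayed between 0.13 and 0.17. Without Lkb1 KO replicates 2 and 5 the adjusted p was 0.115, and with the Y-linked covariate 0.126, both from limma.

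Hes1, a Notch target that maintains progenitors, was at 7.96, 7.67, 7.75, 7.80 and 7.82 in WT replicates 1 to 5 and at 8.16, 7.86, 7.98, 7.85 and 7.83 in Lkb1 KO. Within each replicate number the Lkb1 KO pool was higher, by 0.017 to 0.23, but the groups overlapped and the gene did not pass the test (log2 fold change 0.14, 95% confidence interval -0.014 to 0.29, limma adjusted p = 0.391). In the replicate-blocked fit the adjusted p was 0.114. Hes5, the target named for neural progenitors, was at 6.45 to 6.70 in WT and 6.39 to 6.77 in Lkb1 KO, with a log2 fold change of -0.031 (95% confidence interval -0.18 to 0.12, limma adjusted p = 0.895). Hey1 was at 9.06 to 9.33 in WT and 9.20 to 9.57 in Lkb1 KO, with a log2 fold change of 0.076 (95% confidence interval -0.085 to 0.24, limma adjusted p = 0.717). Without Lkb1 KO replicate 1 the log2 fold change of Hes1 was 0.08, without Lkb1 KO replicate 5 that of Hey1 was 0.017, and without WT replicate 5 that of Notch3 was 0.012. Whether the fold changes of the Hes genes and Hey1 differ from that of Heyl was not tested.

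In total, 3 of the 10 genes had all Lkb1 KO pools above all WT pools and 0 had them below, against 3.09% and 2.24% of all genes. The SDs of the groups ran from 0.019 for Hey2 in WT to 0.15 for Hes5 and Hey1 in Lkb1 KO. Pools with the same replicate number shared their deviation in some of the genes but not in others. Replicate 1 had the lowest Notch1, Jag1 and Heyl level of both groups, and the highest Hes1 level of both. For Hey2, however, replicate 1 was the lowest WT pool (11.01) and the highest Lkb1 KO pool (11.27). For Hey1 it was the lowest WT pool (9.06) but not the lowest Lkb1 KO pool (9.32).

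Of 46 other genes of the pathway, 45 were measured. At a limma adjusted p under 0.05, 0 were higher and 2 lower, against 2.49% and 1.38% of all genes. At an unadjusted p under 0.05 these counts were 4 and 7 of 45, against 7.51% and 7.77% of all genes, and the one-way analysis of variance called 0 and 1. In the replicate-blocked fit 1 was higher and 3 were lower, against 3.59% and 2.83% of all genes. The median log2 fold change of the 45 was -0.0058. The 2 genes called lower without the block, Adam10 and Aph1b, are both among the 17 measured genes of ligand and receptor processing. At a limma adjusted p under 0.01, 0 of the 45 were called.

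Adam10, the gene of the protease that makes the first cut, had log2 levels of 11.84, 11.81, 11.84, 11.79 and 11.90 in WT replicates 1 to 5 and of 11.63, 11.66, 11.73, 11.65 and 11.68 in Lkb1 KO. All Lkb1 KO pools lay below all WT pools. Its log2 fold change was -0.17 (SE 0.036, 95% confidence interval -0.25 to -0.09, limma adjusted p = 0.0214). The call was lost without WT replicate 1 (limma adjusted p = 0.0522), without WT replicate 3 or Lkb1 KO replicate 2 (0.0541 each), without Lkb1 KO replicates 2 and 5 (0.0956) and with the Y-linked covariate (0.108). The log2 fold change was -0.17 without Lkb1 KO replicates 2 and 5 and -0.16 with that covariate.

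Aph1b, which encodes an APH1 subunit of gamma-secretase, was at 8.54, 8.63, 8.83, 8.72 and 8.64 in WT replicates 1 to 5 and at 8.30 to 8.47 in Lkb1 KO replicates 1, 3, 4 and 5, with replicate 2 the highest of that group. These groups did not overlap either, and the log2 fold change was -0.26 (SE 0.056, 95% confidence interval -0.38 to -0.14, limma adjusted p = 0.0218). The call was lost without Lkb1 KO replicate 3 (0.0551) or WT replicate 4 (0.0618), without Lkb1 KO replicates 2 and 5 (0.0762), with the Y-linked covariate (0.0918) and in the analysis of variance (0.0797). The log2 fold change was -0.25 without Lkb1 KO replicates 2 and 5 and -0.26 in the last 2 fits. Mouse Aph1b and Aph1c are close paralogs, so that signal may be shared between them. Aph1c had a log2 fold change of -0.046 (limma adjusted p = 0.874).

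The remaining genes of receptor and ligand processing did not pass the test, 15 of 17 measured. Aph1a, the other APH1 gene, had a log2 fold change of 0.13 (limma adjusted p = 0.0721), and all its Lkb1 KO pools lay above its WT pools. Aph1a was called higher with array weights (limma adjusted p = 0.0303) and cyclic loess (0.0485). Adam17, which encodes a second protease able to cut Notch, had 0.16 (limma adjusted p = 0.0887, 0.0381 with the replicate block). It was also called higher with array weights (limma adjusted p = 0.0356) and without WT replicate 5 (0.0376). Mfng and Lfng encode Fringe glycosyltransferases, which modify the receptor and so bias its choice of ligand. Mfng had a log2 fold change of -0.26 (limma adjusted p = 0.0752, 0.00716 with the replicate block) and Lfng of 0.14 (limma adjusted p = 0.166). Mfng was also called lower with the Y-linked covariate (-0.35, limma adjusted p = 0.0414), with array weights (0.0257) and without Lkb1 KO replicate 5 (0.0439). Lfng was called higher without Lkb1 KO replicate 5 (limma adjusted p = 0.0463). The other gamma-secretase genes measured, Psen2, Ncstn and Psenen, had log2 fold changes of -0.016, -0.0081 and 0.035.

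Of the genes of the nuclear complex, 0 of 7 were called, with log2 fold changes of -0.11 to 0.094. Rbpj, the DNA-binding partner, was at 9.75 ± 0.071 in WT and 9.71 ± 0.05 in Lkb1 KO (SD, n = 5). The coactivator genes Maml1, Maml2 and Maml3 had log2 fold changes of 0.094, 0.075 and -0.11. Of 10 genes of inhibition and turnover 0 were called, including Dtx1, a Deltex ubiquitin ligase gene (log2 fold change 0.19, limma adjusted p = 0.115), and Numb, which encodes an inhibitor of the receptor (-0.10, limma adjusted p = 0.243). Nrarp, a feedback inhibitor and itself a Notch target, had a log2 fold change of -0.10 (95% confidence interval -0.31 to 0.10, limma adjusted p = 0.695). Of the 4 other Hes genes 0 were called, and Hes6, which encodes a Hes1 antagonist that promotes neurogenesis, had -0.15 (limma adjusted p = 0.351), with Hes3 at 0.025 and Hes7 at 0.038. At an unadjusted p under 0.05 the nuclear complex and the other Hes genes had 0 genes, and inhibition and turnover had 1 higher and 1 lower. The analysis of variance called 0 in these 3 groups.

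**Figure D2:**
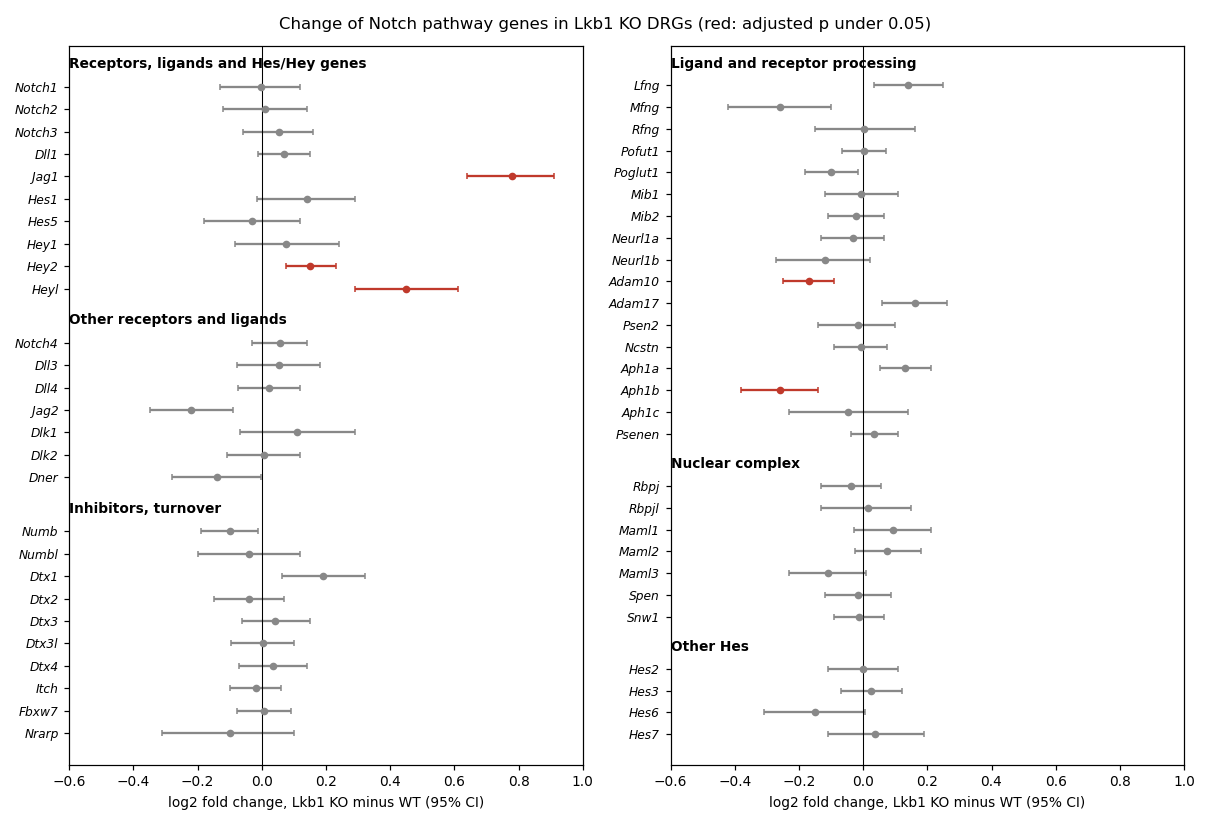
Difference of mean log2 levels between Lkb1 KO and WT (x axis) with its 95% confidence interval for the 10 genes and 45 other measured genes of the Notch pathway, grouped by role (y axis), with red for a limma adjusted p under 0.05. Jag1 at 0.78 and Heyl at 0.45 stand to the right of the other genes, and Adam10 at -0.17 and Aph1b at -0.26 are red on the left.

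The genes that rose can be set beside markers of the cell types a ganglion holds. Fibroblasts and mesenchyme were covered by 10 genes, of which 9 were higher and 0 lower at a limma adjusted p under 0.05, with a median log2 fold change of 0.32 and a range of 0.25 (Dcn) to 0.50 (Lum). The log2 of their summed level was 12.88 to 12.95 in the WT and 13.21 to 13.26 in the Lkb1 KO pools, and Twist1 was the dimmest of them at a mean of 6.81. Those with the smallest p were the matrix genes Postn (0.36), Col6a3 (0.35) and Col1a2 (0.30). The analysis of variance called 7, and 8 were called without Lkb1 KO replicates 2 and 5. Jag1, at 0.78, lay above all 10 of these values, while Heyl and Hey2, at 0.45 and 0.15, lay inside or below their range. The part of these cells in the rise of Jag1, Heyl and Hey2 was not tested.

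Of 10 genes of pericytes and smooth muscle, the mural cells in which Notch3 and Heyl are known markers, 0 were called in limma and in the analysis of variance, and 2 were higher at an unadjusted p under 0.05. Their median log2 fold change was 0.12 and the highest was 0.30 (Acta2, limma adjusted p = 0.368), below the 0.45 of Heyl. The log2 of their summed level was 10.42 to 10.51 in WT and 10.52 to 10.82 in Lkb1 KO, and 5 of the 10, among them Myh11 and Tagln, were under the median level of all genes. Abcc9, a potassium channel subunit gene, had the smallest p of the list (0.25, limma adjusted p = 0.0572). Pdgfrb, a receptor gene used here as a pericyte marker, had a log2 fold change of 0.21 (limma adjusted p = 0.104, 0.0212 with the replicate block). The channel gene Kcnj8 also had 0.21 (limma adjusted p = 0.338, 0.0455 with the block). All Lkb1 KO pools of Pdgfrb lay above its WT pools. The block thus called 2 of the 10, and 1 was called when the dimmest 30% of genes or Lkb1 KO replicate 3 was left out. The part of mural cells in the rise of Heyl was not tested.

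Of 12 endothelial genes, 1 was higher and 0 lower, the tight junction gene Cldn5 at 0.29 (limma adjusted p = 0.00532). All 12 values were above 0. Kdr, a VEGF receptor gene, was at 0.17 (limma adjusted p = 0.183, 0.049 with the replicate block), and Emcn at 0.098 (limma adjusted p = 0.401). The list's median was 0.066, and its summed log2 level was 12.44 to 12.51 in WT and 12.43 to 12.71 in Lkb1 KO. The adhesion genes that define endothelium, Pecam1 and Cdh5, had log2 fold changes of 0.041 and 0.030, and Dll4 and Notch4, the Notch genes known from endothelium, of 0.022 and 0.056 (limma adjusted p = 0.884 and 0.597). The 0.78 of Jag1 lay above the values of all 12 endothelial markers. The part of endothelium in the rise of Jag1 was not tested.

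Among 10 measured genes of Schwann cells and satellite glia, 0 were higher and 1, the cadherin gene Cdh19, was lower (-0.50, limma adjusted p = 7.38e-05), with a median of -0.021. At an unadjusted p under 0.05, 0 were higher and 3 lower. Ednrb, an endothelin receptor gene, and Gfra3, a GDNF family receptor gene, each had -0.20 (limma adjusted p = 0.165 and 0.16), and the replicate block called Ednrb lower (0.0445). Sox10 and Sox2, which mark crest-derived progenitors and glia, had log2 fold changes of 0.073 and 0.12 (limma adjusted p = 0.732 and 0.449). The summed log2 level of the list was 14.45 to 14.52 in WT and 14.31 to 14.46 in Lkb1 KO. Of 10 measured sensory neuron genes 2 were lower, Isl1 (-0.25) and Prrxl1 (-0.19), with a median of -0.20, and Ntrk2 had -0.28 (limma adjusted p = 0.0608). The replicate block called 5 lower, adding Ntrk2, Runx3 and Avil, while Prrxl1 was lost without Lkb1 KO replicates 2 and 5 (limma adjusted p = 0.0822), with the Y-linked covariate (0.0754), in 8 of the 10 fits without 1 pool and in the analysis of variance (0.1). Of 9 proliferation genes 7 were higher, with a median of 0.40, among them Mki67 (0.39) and Ccna2 (0.40). Only 4 of the 9 were called without Lkb1 KO replicates 2 and 5, with the Y-linked covariate and in the analysis of variance, and 8 with the block. The summed log2 level was 13.29 to 13.46 in WT and 13.10 to 13.22 in Lkb1 KO for the neuron genes, and 12.33 to 12.54 and 12.66 to 12.86 for the proliferation genes. The proliferation genes thus differed between the groups in the same direction as Jag1 and Heyl. Whether they vary together with Jag1 and Heyl across pools was not tested, and neither was their part in these results. Jag1 exceeded all 9 proliferation genes, the highest being Kif11 at 0.47.

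Proneural genes are known to be repressed by Hes proteins. Of the 4 measured 0 were called, and 0 passed an unadjusted p under 0.05 in limma or the adjusted test in the analysis of variance. Neurog1, which directs the later wave of sensory neurogenesis, was at 5.80 ± 0.28 in WT and 5.80 ± 0.31 in Lkb1 KO (SD, n = 5). Neurod1 was at 9.49 ± 0.49 and 9.21 ± 0.68 (SD, n = 5), a log2 fold change of -0.28 with a 95% confidence interval of -0.93 to 0.38, so that a rise or a fall of modest size was not detectable with these arrays. Neurod4 had 0.19 (limma adjusted p = 0.893) and Neurog2 0.01 (0.948). Of 8 genes of spinal cord progenitors, in which Hes5 and Dll1 are also active, 1 was called, Pax6 at 0.24 (limma adjusted p = 0.044), a call lost without Lkb1 KO replicates 2 and 5 (0.0786), with the Y-linked covariate (0.166), in the analysis of variance (0.126) and in 7 of the 10 fits without 1 pool. Msx3 followed at 0.13 (limma adjusted p = 0.145) and Dbx2 at 0.078 (0.607). All 8 were under the median level of all genes, and their summed log2 level was 7.95 to 8.04 in WT and 7.99 to 8.12 in Lkb1 KO.

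**Figure D3:**
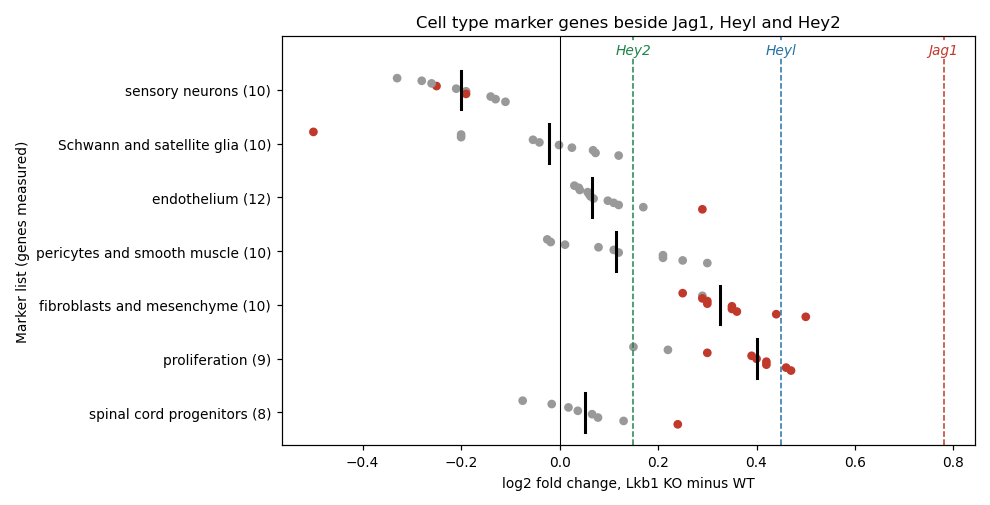
Difference of mean log2 levels between Lkb1 KO and WT (x axis) for every measured gene of 7 marker lists (y axis, number of genes measured), with red for a limma adjusted p under 0.05, with black bars at the list medians and dashed lines at Jag1, Heyl and Hey2. Jag1 at 0.78 lies to the right of every marker gene plotted, while Heyl at 0.45 lies among the fibroblast and proliferation genes.

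**Figure D4:**
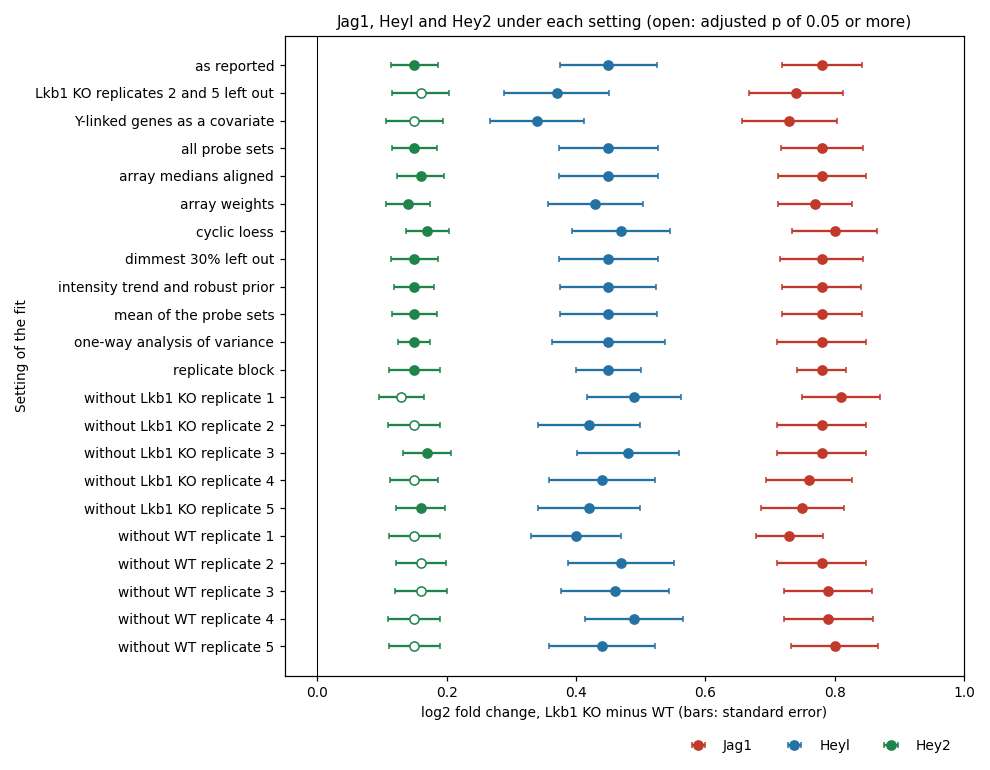
Difference of mean log2 levels between Lkb1 KO and WT (x axis, bars are standard errors) for Jag1, Heyl and Hey2 as reported and in 21 alternative fits (y axis), filled where the adjusted p was under 0.05 and open otherwise. Jag1 stays between 0.73 and 0.81 and Heyl between 0.34 and 0.49 with all points filled, while Hey2 stays between 0.13 and 0.17 with 10 open points.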

How the data were processed

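The submitters' processing notes name RMA, which corrects background, quantile-normalizes arrays and summarizes probe sets, and Partek 6.6, while the methods give MATLAB with a threshold of 0.01. The deposited values are log2 levels of 35556 probe sets; the genome build was not stated in any source used. Of these, 21789 have 1 gene in the platform annotation, 1621 several and 12146 none listed. Symbols were updated by gene ID from RefSeq (21698 matched), and the brightest probe set of each gene was kept, which left 19938 genes. Array medians lay between 6.501 and 6.57, and the number of arrays limits precision.

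Groups and replicate numbers came from the sample titles. The 2 groups were fitted by lmFit and eBayes of limma 3.58.1 under R 4.3.3 (two-sided, no filter), and single genes also with an exact permutation test. With labels exchanged only within replicate numbers, the exact test cannot go below p = 0.0625. Deviations from the group means correlated between same-numbered pools (Pearson r over genes 0.21 to 0.48). Between differently numbered pools r ran from -0.482 to 0.306, so that the 2 ranges overlapped. Of the 10 pools, 8 correlated best with the pool of their own number in the other group. A fit with the number as a block is therefore given beside the unblocked fit reported here where it changes a call. What a number stands for is not in the labels. The labels call the samples biological replicates, and no 2 arrays were alike (SD of differences within a group 0.12 to 0.198).

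The 10 genes, the other lists and the tests were chosen with earlier results of these data known. Named were all 10 genes, Stk11, called genes of the other pathway lists and up to 3 genes per list with the smallest unadjusted p; others, such as Rbpj, Maml1, Nrarp, Pecam1 and Sox10, were added for their roles after values were seen. Leaving out Lkb1 KO replicates 2 and 5, and all alternatives for marker lists, were added after seeing the data. Of the pathway genes listed, 1 is not reported here. Other steps used Python 3.11.15.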

Additional observations from a re-analysis of the deposited data

Results flagged for a closer look

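Among 15 genes and 30 groups of 5 pools examined for a sample that stands apart, 2 were found. Chance alone gives about 1 such sample per 20 groups examined if the groups are independent. The 30 groups share the same arrays and both values were of WT replicate 1, so that this rate cannot be applied here. Whether that pool deviates as a whole was not tested. Jag1 in WT replicate 1 was at 8.55, against 8.79 to 8.84 in the other 4 WT pools. Hey1 in WT replicate 1 was at 9.06, against 9.29 to 9.33 in the others. Without that pool the log2 fold change of Jag1 was 0.73 (limma adjusted p = 1.79e-05), and that of Hey1 was 0.027 (limma adjusted p = 0.925).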

How the results depend on the processing

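Over 21 alternative fits Jag1 and Heyl kept their calls (adjusted p at most 0.00229 and 0.046), and 2 or 3 of the 10 genes were higher and 0 lower in each. The replicate block added the calls of Mfng and Adam17 in the pathway, changed no call of the 10 genes, and gave 715 genes higher and 565 lower over all genes, against 496 and 275 as reported; in the pathway 1 other gene was then higher and 3 lower. Of 209 member values, 16 changed sign, each with an adjusted p of 0.637 or more. Without Lkb1 KO replicates 2 and 5, chosen after seeing the data, Notch2 was at -0.069, Hey1 at -0.018 and Hey2, no longer called, at 0.16, with 288 genes higher, 171 lower and 0 other pathway genes lower. With the Y-linked covariate these 3 genes were at -0.068, -0.035 and 0.15 (Hey2 again not called), with 285 genes higher and 1 other pathway gene, Mfng, lower. Array weights gave Notch1 0.0042 and 2 other pathway genes higher and 4 lower, and cyclic loess gave Notch1 0.017 and 1 higher. The analysis of variance called 260 genes higher and 127 lower, with 1 other pathway gene lower, and a threshold of 0.01 gave 231, 82 and 0. Leaving out 1 pool at a time gave 333 to 487 genes higher, 146 to 347 lower, 0 to 1 other pathway genes higher and 1 to 3 lower, and log2 fold changes of -0.035 to 0.046 for Notch1, -0.027 to 0.045 for Notch2, -0.091 to 0.0059 for Hes5, 0.08 to 0.18 for Hes1, 0.017 to 0.11 for Hey1, 0.012 to 0.081 for Notch3 and 0.13 to 0.17 for Hey2. The marker lists were run under the same alternatives after seeing the data; the replicate block added Ntrk2, Runx3, Avil, Ednrb, Kdr, Pdgfrb, Kcnj8, Pdgfra and Mcm5, and leaving out 1 pool gave 8 to 10 fibroblast and 6 to 8 proliferation genes higher and 1 to 3 neuron genes lower. Dll1 was not tested when the dimmest 30% of genes were left out. The causes were not tested.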
